A study of Mus musculus with 30 samples.

Results

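Germ cells labelled Rnf2delta were compared between the embryonic ovary and testis at E12.5, to ask how far the female and male fates had parted in the mutant. The members are the 6 of 30 arrays labelled Ring1+;Rnf2delta at E12.5, 3 from female and 3 from male embryos. Every embryo of the series carried the Oct4(deltaPE)-GFP transgene, a reporter active in germ cells, on a background labelled mixed129/Sv and C57BL6J. GFP-positive cells were sorted from trypsin-treated gonads and RNA of 500 cells was amplified for each array. The genotype of the 6 arrays is called Rnf2delta here, and the labels name no Cre line or other agent that produced the deletion. Comparison groups of 3 arrays per sex were Ring1+;Rnf2+ germ cells, called control, at E11.5, E12.5 and E13.5, and Rnf2delta germ cells at E11.5. All groups carry the Ring1+ label. Nothing in the labels tells whether the 3 arrays of each group stem from different embryos, litters or pools, and a p-value here reflects only the spread among these samples, part of which may be technical.

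Rnf2 encodes a ubiquitin ligase of Polycomb repressive complex 1 (PRC1), which marks histone H2A and helps keep developmental genes silent. Germ cells reach the gonad able to take the female or the male path. In the fetal ovary, retinoic acid and BMP signals lead them to express Stra8 and Meioc and to enter meiotic prophase. In the fetal testis, retinoic acid is degraded, Nodal signalling with its coreceptor Tdgf1 is transiently active, and germ cells later express Nanos2 and stop dividing.

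Several properties of the 6 arrays bear on every value that follows. Male replicate 3 stood apart from the other male arrays: its second principal component score was 4.5, against 19 and 22, and its interquartile range of log2 signal was 2.48, against 2.76 and 2.80. It also carried the embryonic globin transcript Hbb-y at 9.71, whereas the other 29 arrays of the series lay between 1.56 and 3.22. Its part in the results was not tested beyond leaving it out, and results without it are given below. The median within-group standard deviation was 0.207 in Rnf2delta females and 0.175 in Rnf2delta males. It was 0.238 in E12.5 control females, the largest of the 10 groups, and each group therefore had its own variance weight in the fit. Sex labels were checked on the sex chromosomes, which enter no count below: 109 of 474 X-linked genes were higher and 1 lower in females, and 5 of 7 Y-linked genes were higher in males. Rnf2 itself read 4.47, 5.0 and 4.68 on the female arrays and 4.09, 4.45 and 4.46 on the male arrays, a difference of 0.38 ± 0.22 (SE; limma adjusted p = 0.32). On E12.5 control arrays it read 5.71, 5.24 and 5.08 in females and 5.22, 5.68 and 5.21 in males, so all 6 Rnf2delta arrays lay below all 6 control arrays but well above the 40th percentile of an array (2.22 to 2.29). Whether its probe set lies inside the deleted part is not given in the sources used here, and the deletion is therefore taken from the labels. Its paralogue Ring1 differed by 0.01 ± 0.17 (adjusted p = 0.99).

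Germ cell identity was checked on 10 marker genes, whose mean log2 signal was 7.67 to 8.03 on female and 7.91 to 8.03 on male arrays. Of these 10, 0 were called higher in females and 2, Pou5f1 and Nanos3, higher in males (20%, against 6.29% of all genes). The median difference was -0.12, or -0.03 after quantile normalization, and 5 of the 10 differences were positive with the deposited values. Dazl, an RNA-binding protein of germ cells, read 9.43, 9.28 and 9.03 in females and 8.52, 8.51 and 8.56 in males, and Ddx4, the germ cell RNA helicase, lay between 7.54 and 8.48. Both differences missed the threshold (0.71 ± 0.31, adjusted p = 0.15, and 0.41 ± 0.30, adjusted p = 0.47), although the Dazl arrays did not overlap. Of the markers of gonadal support cells, Foxl2, Sox9 and Amh were near the lower end of the signal range, where the 40th percentile of an array was 2.22 to 2.29. Foxl2, which marks pregranulosa cells, was at 2.29 to 2.65, and Sox9 and Amh, which mark Sertoli cells, at 2.15 to 2.69 and 2.0 to 2.6. On the full lists, 3 of 12 pregranulosa markers were called higher in females and 1 of 16 Sertoli markers higher in males. The mean signal of the pregranulosa list was higher on every female array, and that of the Sertoli list on every male array, as given below.

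In Rnf2delta germ cells, 1384 of 14686 autosomal genes tested differed between the sexes. Of these, 460 were higher in females and 924 in males, that is 9.42% of the genes tested, 3.13% higher in females and 6.29% in males. The threshold was an adjusted p below 0.05, with limma's moderated test on log2 signals and Benjamini-Hochberg adjustment over all 15180 genes tested; a difference is always female minus male. All 3 arrays of one sex lay above all 3 of the other for 3727 genes, 25.4% of those tested, of which 1368 were higher in females (9.31%) and 2359 in males (16.1%); 1319 of the called genes were among them. The balance moved with the scaling: quantile normalization gave 680 higher in females and 774 in males, so 46.8% of calls were female-high against 33.2% with the deposited values. Without male replicate 3 the count was 1863 (486 and 1377), of which 1286 were shared with the 1384. Without male replicate 1 or 2 it was 718 and 727, and without female replicate 1 or 2 it was 835 and 876. In cells sorted in bulk, fewer cells with a transcript and less transcript per cell cannot be told apart.

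Among the 24 genes with the largest differences, 12 on either side, were the meiotic genes Stra8, Meioc and Rec8 and the BMP-response list members Id2, Id3 and Gata2 on the female side, and the Nodal pathway genes Tdgf1, Lefty1, Lefty2 and Otx2 on the male side. Stra8, which is induced by retinoic acid and required for meiotic entry, read 6.50, 5.66 and 4.6 on the female arrays and 2.31, 2.03 and 2.28 on the male arrays. Tdgf1, the Nodal coreceptor also called Cripto, read 2.40, 2.66 and 2.03 in females and 6.28, 7.05 and 6.37 in males. The male arrays of Stra8 and the female arrays of Tdgf1 were close to the 40th percentile of an array, and neither gene's arrays overlapped between the sexes. The differences were 3.38 ± 0.38 (adjusted p = 9.2e-07) for Stra8 and -4.21 ± 0.44 (3.1e-07) for Tdgf1. Each of the 24 genes kept its call without male replicate 3.

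**Figure D1:**
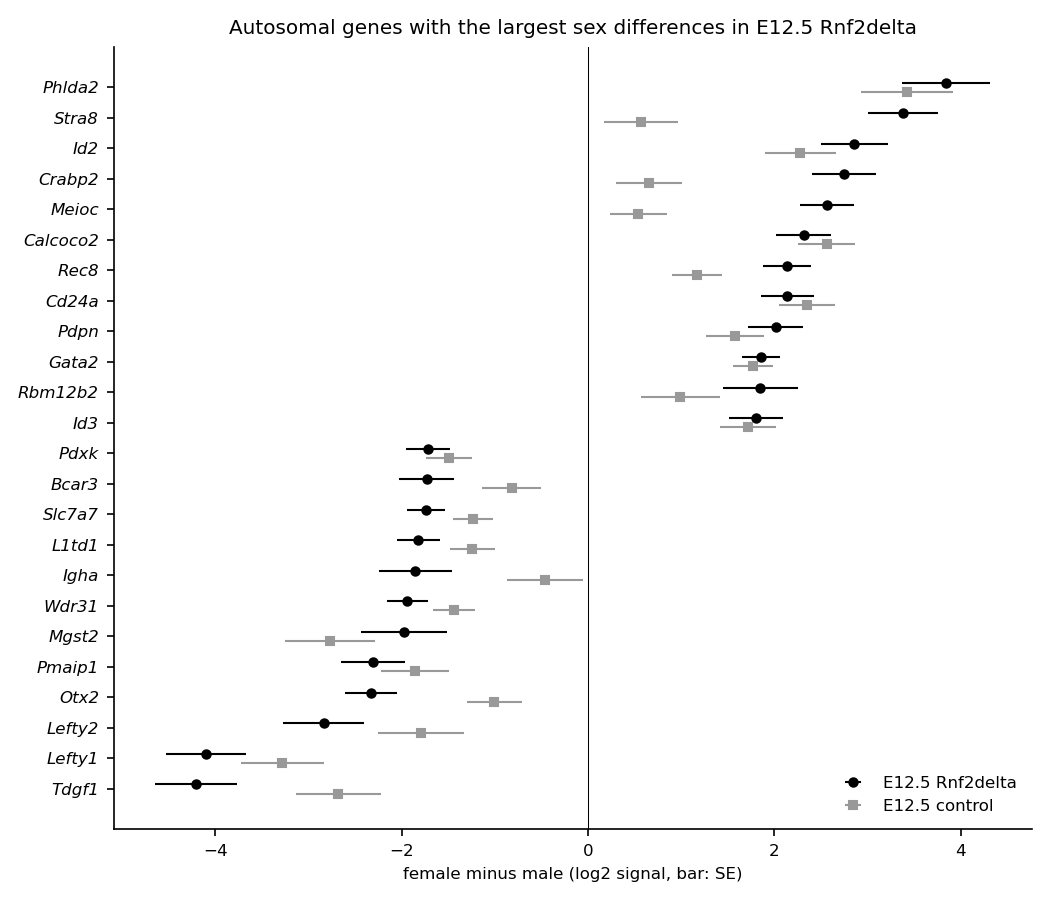
The 24 autosomal genes with the largest called differences between the sexes in E12.5 Rnf2delta germ cells, 12 higher in females (positive) and 12 higher in males (negative). Circles are Rnf2delta and squares E12.5 controls, with bars of 1 SE from limma; Stra8, Crabp2 and Meioc show a wide gap between circle and square, whereas Phlda2, Gata2 and Id3 show almost none.

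The largest difference on the female side was that of Phlda2, an imprinted gene that restrains placental growth. Its log2 signal was 7.40, 8.48 and 8.54 in females and 4.83, 4.02 and 4.06 in males, a difference of 3.84 ± 0.47 (adjusted p = 3.6e-06). Cd24a, a cell surface glycoprotein, and Pdpn, a membrane mucin, were abundant in females at 8.79 to 9.22 and 7.88 to 8.15, and lower in males at 6.16 to 7.59 and 5.71 to 6.44. They differed by 2.14 ± 0.29 and 2.02 ± 0.30. Calcoco2, an autophagy receptor, differed by 2.32 ± 0.29, or by 1.61 with its probe sets averaged. Rbm12b2, an RNA-binding protein gene, differed by 1.85 ± 0.40. None of these is a meiotic gene.

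The meiotic genes called were all higher in ovarian than in testicular Rnf2delta germ cells. Of 38 autosomal members tested of a list of meiotic entry and prophase I (45 listed, 3 not measured, 1 sex-linked, 3 below the filter on low signal), 13 were higher in females and 0 in males, against 3.13% and 6.29% of all genes. The list's median difference was 0.54, against -0.05 over all genes, and 32 of the 38 differences were positive. Without male replicate 3 the counts were 13 and 1 and the median 0.47.

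Of the genes that start meiosis, Meioc, which with its partners stabilises the meiotic state, read 6.10, 4.43 and 4.83 in females and 3.07, 2.64 and 1.94 in males. It differed by 2.57 ± 0.29 (adjusted p = 1.1e-06). Rec8, the meiosis-specific kleisin of cohesin, read 6.35, 5.69 and 5.48 against 3.77, 3.82 and 3.51, a difference of 2.14 ± 0.26 (2.7e-06). On all 3 female arrays both genes were more than 1 log2 unit above every male array, and female replicate 1 was the highest, as it was for Stra8. The cohesin gene Smc1b read 8.44, 7.67 and 7.34 against 7.08, 6.55 and 5.90 (1.31 ± 0.30, adjusted p = 0.0048), and Stag3, another cohesin subunit, differed by 0.93 ± 0.19. Without female replicate 1 Smc1b missed the threshold (adjusted p = 0.061).

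Genes of chromosome structure and recombination were also called. Sycp3, a lateral element protein of the synaptonemal complex, read 8.90, 7.62 and 7.07 in females and 6.56, 6.32 and 6.18 in males, a difference of 1.51 ± 0.38 (adjusted p = 0.0087). The male level of Sycp3 was far above the lower end of the signal range, unlike that of Stra8. Dmc1, the meiotic strand-exchange recombinase, differed by 1.33 ± 0.29 (0.0029), and 4930447C04Rik, also named Six6os1, a central element protein, by 1.70 ± 0.32 (8.6e-04). Hormad1 and Hormad2, which bind unsynapsed chromosome axes, differed by 1.11 ± 0.23 and 0.88 ± 0.19, and Majin, which tethers telomeres to the nuclear envelope, by 0.74 ± 0.19. Sycp1, the transverse filament, and Spo11, which makes the DNA breaks of recombination, differed by 1.09 ± 0.32 (adjusted p = 0.026) and 0.70 ± 0.22 (0.038). Their calls were lost in 5 of 16 other settings each, Sycp1 among them without male replicate 3 (0.87, adjusted p = 0.064), and those of Sycp3 and Majin without female replicate 1.

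Promoter sequence is shown for Stra8 and for the 4 called meiotic genes whose promoter held an E2F motif, a choice made after the values were seen. Meiotic genes are known to be held in check in many cells by PRC1 complexes that are recruited through E2F6 and through the E-box binding protein MGA. RefSeq promoters of assembly GRCm38.p6 were matched by symbol for 11 of the 13 called genes, and the 250 bases before each start were searched on both strands for CACGTG (E-box), TTCCCGC (E2F) and AGGTCA (retinoic acid response half-site), none of which overlapped another. Sequences run 5′ to 3′ on the gene's strand, and capitals mark the matches. Stra8 (chr6:34920698-34920947, plus strand) had half-sites at -194 and -38 from its start, and Meioc (chr11:102665335-102665584, plus strand) an E2F match at -228. Sycp3 (chr10:88459337-88459586, plus strand) and Hormad1 (chr3:95559427-95559676, plus strand) had an E2F match, a half-site and a pair of E-boxes each, and Smc1b (chr15:85131958-85132207, minus strand) an E2F match at -48.
Stra8: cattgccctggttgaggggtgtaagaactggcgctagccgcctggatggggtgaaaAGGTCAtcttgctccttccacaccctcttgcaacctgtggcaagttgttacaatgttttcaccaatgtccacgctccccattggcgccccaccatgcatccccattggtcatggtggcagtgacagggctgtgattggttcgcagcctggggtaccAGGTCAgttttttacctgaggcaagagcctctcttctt
Meioc: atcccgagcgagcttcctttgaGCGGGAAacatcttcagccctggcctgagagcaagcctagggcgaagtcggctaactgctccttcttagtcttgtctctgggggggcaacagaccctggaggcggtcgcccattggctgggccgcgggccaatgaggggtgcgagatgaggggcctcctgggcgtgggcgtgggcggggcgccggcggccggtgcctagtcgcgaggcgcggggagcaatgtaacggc
Sycp3: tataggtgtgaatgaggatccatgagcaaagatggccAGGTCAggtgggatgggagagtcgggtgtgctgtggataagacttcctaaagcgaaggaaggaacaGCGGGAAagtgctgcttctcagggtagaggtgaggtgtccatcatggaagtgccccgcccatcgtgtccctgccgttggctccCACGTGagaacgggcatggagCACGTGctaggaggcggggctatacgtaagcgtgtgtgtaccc
Smc1b: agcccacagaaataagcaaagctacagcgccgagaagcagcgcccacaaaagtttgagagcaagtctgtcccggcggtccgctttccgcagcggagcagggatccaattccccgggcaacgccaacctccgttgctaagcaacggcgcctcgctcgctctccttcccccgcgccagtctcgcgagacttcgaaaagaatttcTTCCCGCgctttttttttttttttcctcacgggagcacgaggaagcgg
Hormad1: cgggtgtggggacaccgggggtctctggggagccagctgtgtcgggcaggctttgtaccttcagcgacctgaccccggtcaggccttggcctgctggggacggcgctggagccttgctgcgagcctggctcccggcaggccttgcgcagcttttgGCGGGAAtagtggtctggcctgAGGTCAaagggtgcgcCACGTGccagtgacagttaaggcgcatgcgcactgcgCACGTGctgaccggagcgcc

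A gene was counted if any of its promoters held a match. Of the 11 genes 5 had an E-box (45.45%), 4 the E2F motif (36.36%) and 3 a half-site (27.27%). Among 21 list members with a promoter that did not pass, these numbers were 3, 5 and 3. Over 11597 autosomal genes tested with a promoter the shares were 9.296%, 7.381% and 13.96%. Over all 32851 promoters given, counted singly and not by gene, they were 6.021%, 3.817% and 14.02%. A match is a description of these letters, and occupancy by any factor was not measured here.

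Several BMP-response genes were also higher in ovarian germ cells. In a list of the oogenic programme and BMP response, 8 of 20 tested members (40%) were higher in females and 0 in males, against 3.13% and 6.29% of all genes (median 0.49). Id2, an inhibitor of helix-loop-helix factors induced by BMP, read 4.98, 5.59 and 4.21 in females and 1.92, 2.06 and 2.22 in males (2.86 ± 0.36, adjusted p = 5.4e-06). Its relatives Id3 and Id1 differed by 1.81 ± 0.29 and 1.32 ± 0.26, and Id4, at 1.03 ± 0.24, lost its call in 4 of 16 other settings. Gata2, a zinc finger transcription factor, read 5.37, 4.98 and 5.28 against 3.35, 3.05 and 3.66 (1.86 ± 0.21, 9.2e-07). Zglp1, a regulator of the oogenic programme downstream of BMP, read 5.15, 5.08 and 4.22 against 3.58, 3.85 and 3.33. Zglp1 (1.23 ± 0.25), the homeobox gene Msx2 (1.23 ± 0.28) and the translational regulator Ybx2 (0.61 ± 0.19) were called as well, the last not without male replicate 3 (adjusted p = 0.078).

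**Figure D2:**
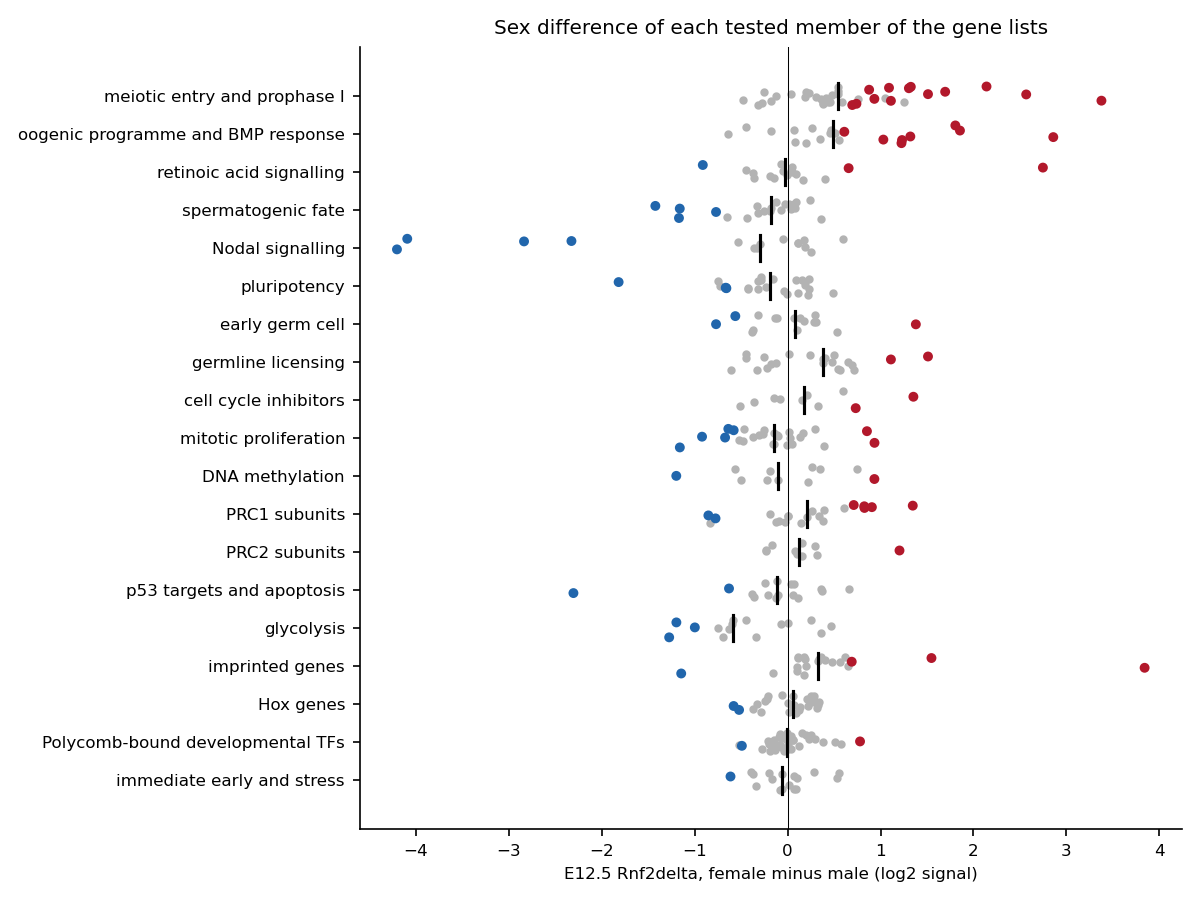
Female minus male difference (log2 signal) of each tested autosomal member of 19 gene lists in E12.5 Rnf2delta germ cells. Red points are called higher in females, blue points called higher in males, grey points not called, and black bars list medians; the meiotic and oogenic lists hold only red calls, and the Nodal, spermatogenic, pluripotency and glycolysis lists only blue ones.

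Retinoic acid genes gave calls in both directions: 2 of 16 were higher in females and 1 in males, against 3.13% and 6.29% of all genes, with a median of -0.02 that was 0.03 without male replicate 3. Crabp2, which carries retinoic acid to its nuclear receptor, accounted for the one large difference. It read 7.30, 6.83 and 6.86 in females and 4.24, 4.94 and 3.55 in males (2.75 ± 0.34, adjusted p = 3.6e-06). Rdh10, which oxidises retinol, was higher in females by 0.66 ± 0.18 (0.016). Aldh1a2, which makes retinoic acid, was higher in males, at 4.68, 4.26 and 3.68 against 3.43, 3.30 and 3.15. That difference of -0.91 ± 0.30 (adjusted p = 0.046) was lost in 7 of 16 other settings. Rarb, a receptor gene induced by retinoic acid in many cells, was at 2.07 to 2.29 in both sexes (0.09 ± 0.15, adjusted p = 0.81), and Cyp26b1, which degrades retinoic acid, at 2.30 to 2.68.

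On the male side, transcripts of the Nodal pathway stood out as single genes. Of 15 tested members 4 were higher in males, against 6.29% of all genes, and 0 in females, with a list median of -0.29. Without male replicate 3 there were 5 male-high calls and 1 female-high call, and the median was -0.23. Lefty1, a Nodal antagonist induced by Nodal itself, read 2.35, 2.16 and 2.85 in females and 6.56, 6.82 and 6.27 in males (-4.09 ± 0.43, adjusted p = 3.2e-07). Lefty2 read 1.93, 2.08 and 3.39 against 5.39, 5.90 and 4.63 (-2.84 ± 0.44, 9.0e-05). Otx2, a homeobox gene downstream of Nodal, read 2.65, 2.65 and 2.51 against 4.85, 5.39 and 4.53 (-2.33 ± 0.28, 2.8e-06). The female arrays of these genes were near the lower end of the signal, except female replicate 3 for Lefty2. The ligand gene Nodal differed by less, at 3.84, 3.97 and 3.68 against 4.40, 4.13 and 4.56 (-0.53 ± 0.21, adjusted p = 0.11), although its arrays did not overlap.

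Of 21 tested genes of spermatogenic fate 4 were higher in males, against 6.29% of all genes, and 0 in females. The list median was -0.18, or -0.10 after quantile normalization. Lhx1, a homeobox gene, read 2.99, 3.13 and 2.90 in females and 4.37, 4.51 and 4.40 in males (-1.42 ± 0.26, adjusted p = 6.0e-04), and Etv5, an ETS factor, differed by -1.16 ± 0.21 (4.6e-04). Bnc2, a zinc finger gene needed for male germ cell development, at -1.17 ± 0.34 (adjusted p = 0.025), and Nanos3, an RNA-binding protein that protects early germ cells, at -0.77 ± 0.24 (0.036), lost their calls in 4 and 7 of 16 other settings. Nanos2, which enforces the male path, was still low in both sexes. It read 2.16, 2.07 and 2.35 in females and 2.93, 2.50 and 2.46 in males, a difference of -0.43 ± 0.33 (adjusted p = 0.49).

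**Figure D3:**
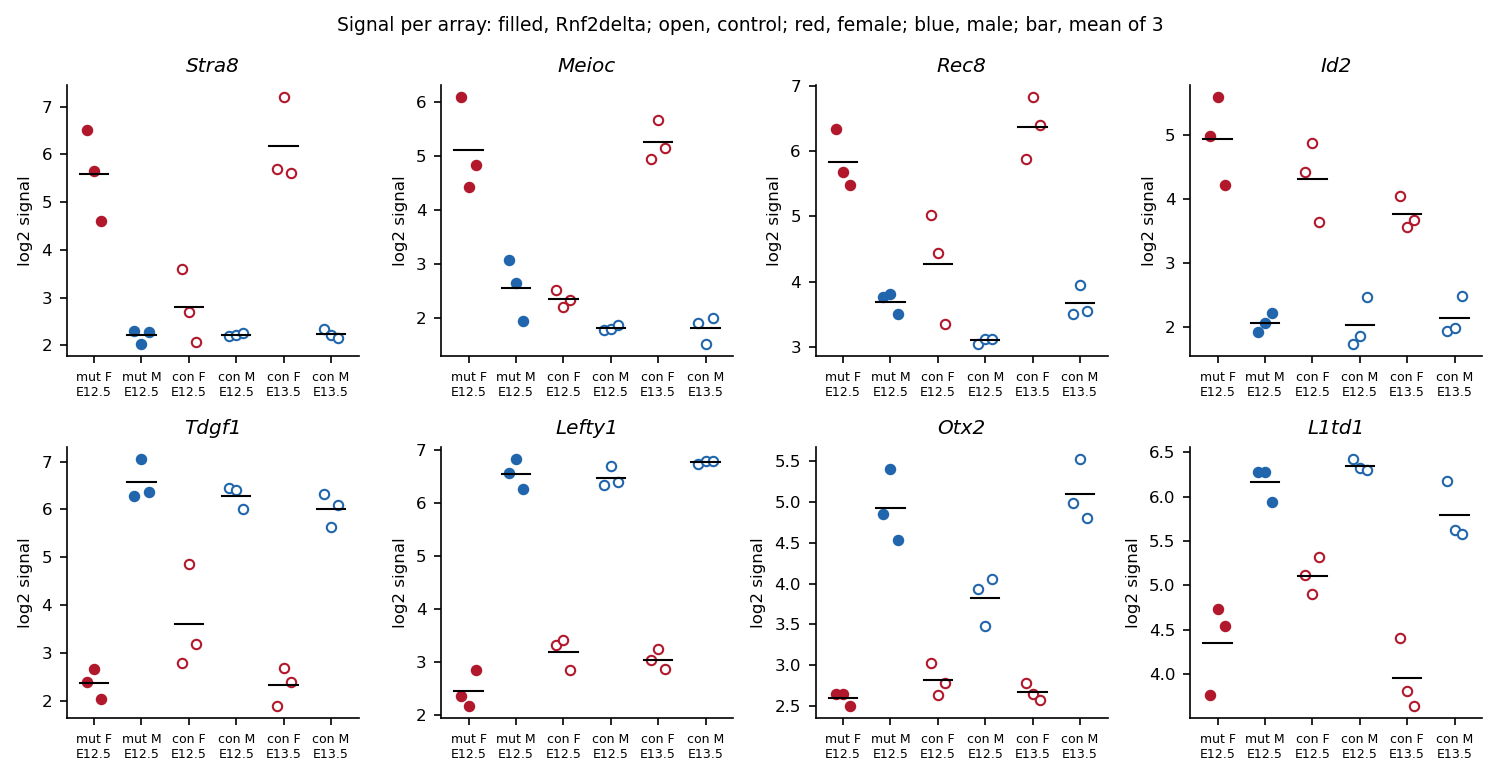
Log2 signal of 8 genes on each array of E12.5 Rnf2delta (filled) and of E12.5 and E13.5 control (open) germ cells, red for female and blue for male, with a bar at the mean of 3. Stra8 and Meioc in Rnf2delta females lie above all E12.5 control females, whereas Tdgf1 and Lefty1 already separate the sexes in E12.5 controls.

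Of 24 pluripotency genes tested, 3 were higher in males, against 6.29% of all genes, and 0 in females. Their median was -0.19, or -0.12 after quantile normalization. L1td1, an RNA-binding protein of stem cells, read 3.77, 4.73 and 4.55 in females and 6.28, 6.28 and 5.94 in males (-1.82 ± 0.23, adjusted p = 4.7e-06). Pou5f1, a core pluripotency factor whose regulatory sequence drives the sorting reporter, read 8.45, 8.79 and 8.86 against 9.47, 9.39 and 9.22. Its difference of -0.66 ± 0.19 (adjusted p = 0.021) was lost in 5 of 16 other settings, and that of Tcl1, a kinase coactivator (-0.67 ± 0.22), in 9. Nanog at -0.32 ± 0.22 and Sox2 at -0.29 ± 0.20, both core factors, missed the threshold, with arrays that overlapped between the sexes.

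Of 27 mitotic genes 5 were higher in males and 2 in females, against 6.29% and 3.13% of all genes (median -0.15). These counts were 7 and 2 without male replicate 3, and the median -0.24. After quantile normalization the list median was -0.07, against -0.02 over all genes. Aurka, a mitotic kinase, read 5.73, 6.76 and 6.04 in females and 7.04, 7.14 and 7.12 in males (-0.92 ± 0.21, adjusted p = 0.0037), and the replication helicase genes Mcm7 and Mcm3 differed by -0.67 ± 0.16 and -0.58 ± 0.15. Aurkb and Bub1b, both of the mitotic checkpoint machinery, differed by -1.16 ± 0.33 and -0.64 ± 0.17. The G1 cyclins Ccnd1 (0.94 ± 0.20) and Ccne2 (0.85 ± 0.24) were higher in females. Of 10 cell cycle inhibitors, Rb1 (0.73 ± 0.22) and Cdkn1b, which encodes p27, were higher in females (20%, against 3.13% of all genes). Without male replicate 3 Rb1 missed the threshold (0.57, adjusted p = 0.093), which left 1 call and a list median of 0.11 in place of 0.18. Cdkn1b read 6.06, 6.57 and 6.32 against 4.73, 4.71 and 5.46 (1.35 ± 0.43, adjusted p = 0.043), a call lost in 7 of 16 other settings, and Cdkn2a and Cdkn1c differed by -0.08 and 0.32 without a call.

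Of 15 glycolysis genes, 3 were called higher in males (20%, against 6.29% of all genes) and 0 in females, with a median of -0.59. Pkm, pyruvate kinase, read 6.86, 7.46 and 7.02 in females and 8.47, 8.53 and 8.15 in males (-1.27 ± 0.18, adjusted p = 2.9e-05). Slc2a1, a glucose transporter, differed by -1.20 ± 0.20 (2.0e-04) and the hexokinase gene Hk2 by -1.0 ± 0.23 (0.0053). Without male replicate 3 the list had 7 male-high calls and a median of -0.71.

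Of 21 genes of PRC1 subunits 5 were higher in females (23.8%, against 3.13% of all genes) and 2 in males (9.52%, against 6.29%), with a median of 0.20. Phc3, a polyhomeotic subunit, read 4.32, 5.26 and 3.83 in females and 3.17, 3.0 and 3.20 in males (1.35 ± 0.26, adjusted p = 8.7e-04), whereas its paralogue Phc1 was higher in males (-0.78 ± 0.17, 0.0034). Yaf2 (0.91 ± 0.22), the PCGF subunit genes Pcgf2 (0.83 ± 0.20) and Bmi1 (0.83 ± 0.27) and the E-box factor gene Mga (0.71 ± 0.22) were higher in females, and L3mbtl2 (-0.85 ± 0.21) in males; the calls of Bmi1 and Mga were lost in 6 and 5 of 16 other settings, that of Mga among them without male replicate 3 (0.62, adjusted p = 0.057). Of 10 PRC2 genes 1, the accessory subunit gene Phf19, was called higher in females (10%, against 3.13% of all genes), at 1.20 ± 0.23 (8.0e-04). The core genes Ezh2 and Eed differed by 0.15 and 0.10 without a call. Among classes of developmental regulators that Polycomb is known to silence, 0 of 25 tested Hox genes were higher in females and 2 in males (8%), and of 39 Polycomb-bound developmental transcription factors 1 was higher in each sex (2.56%). These shares were near or below those over all genes, 3.13% higher in females and 6.29% in males.

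Among 21 imprinted genes 3 were higher in females (14.3%, against 3.13% of all genes) and 1 in males (4.76%, against 6.29%), with a median of 0.32. Leaving out male replicate 3 gave 4 and 1, with a median of 0.18. Besides Phlda2, Plagl1, a zinc finger regulator of imprinted growth genes, read 5.61, 5.80 and 5.27 in females and 4.01, 3.97 and 4.06 in males (1.55 ± 0.23, adjusted p = 4.3e-05). Slc22a18, a neighbour of Phlda2 in its imprinted cluster, was higher in females by 0.69 ± 0.21, and Mest, a hydrolase gene, was higher in males (-1.15 ± 0.27). Of 11 genes of DNA methylation and its removal, the dioxygenase genes Tet1 and Tet2 were called in opposite directions. That is 9.09% each way, against 3.13% higher in females and 6.29% in males over all genes. Tet1 read 6.21, 7.03 and 6.78 against 8.05, 8.04 and 7.53 (-1.20 ± 0.18, 4.3e-05), and Tet2 differed by 0.93 ± 0.22 (0.0054).

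Germline licensing and genome defence gave 2 of 22 called, both higher in females and both also on the meiotic list (Hormad1 and Sycp3), with a median of 0.38. The female-high share was 9.09%, against 3.13% of all genes, and without male replicate 3 there were 2 female-high and 2 male-high calls with a median of 0.23. Mael, a piRNA pathway protein, differed by 0.56 ± 0.32, Piwil2, a piRNA-binding protein, by -0.25 ± 0.16 and the surface glycoprotein gene Tex101 by 0.55 ± 0.34, all without a call. Early germ cell genes gave 1 of 16 higher in females and 2 in males, against 3.13% and 6.29% of all genes. These were the phosphatase gene Alpl (1.38 ± 0.36) in females, and Nanos3 and Mybl2 in males. Of 16 p53 targets and apoptosis genes 2 were higher in males, against 6.29% of all genes, namely Sesn2 and the BH3-only gene Pmaip1. Pmaip1 read 3.69, 3.12 and 3.51 in females against 5.79, 6.05 and 5.40 in males (-2.31 ± 0.34, adjusted p = 5.6e-05). Of 17 immediate early and stress genes 1, the chaperone gene Dnajb1, was higher in males (5.88%, against 6.29% of all genes). The median of that list was -0.06 and 0.02 after quantile normalization, so its sign depended on the scaling.

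The part of other gonadal cells in the results was not tested, and the calls among their markers were as follows. Of 12 pregranulosa markers 3 were higher in females (25%, against 3.13% of all genes), Bmp2, Axin2 and Cdkn1b, and the list's mean signal was 3.05 to 3.32 on female and 2.81 to 3.02 on male arrays. Of 16 Sertoli markers 1, Erbb3, was higher in males (6.25%, against 6.29% of all genes), with a difference of -1.38 ± 0.25. The mean signal of that list was 2.63 to 2.79 on female and 2.93 to 3.26 on male arrays. No marker of interstitial (11), Leydig (2), endothelial (8) or erythroid cells (3) or of macrophages (9) was called; the erythroid mean reached 5.40 on male replicate 3.

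The same sex difference was measured in E12.5 controls, on arrays not used above. There 265 genes were higher in females and 1420 in males, 1685 in all, or 1.8% and 9.67% of those tested, and quantile normalization gave 392 and 566. Without control female replicate 1 the count was 1036. Of the 460 female-high genes of Rnf2delta, 95 were called the same way in controls (20.7% of the 460 and 35.8% of the 265), and of the 924 male-high genes 572 (61.9% of the 924 and 40.3% of the 1420). None was called the opposite way. Across the 14686 genes, which are not independent replicates, the differences of the 2 genotypes had Pearson's r = 0.605 and Spearman's rho = 0.508.

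Among the 24 genes with the largest differences, Stra8, Crabp2 and Meioc were furthest from their control values. Stra8 in E12.5 controls read 3.61, 2.71 and 2.07 in females and 2.21, 2.21 and 2.26 in males, a difference of 0.57 (adjusted p = 0.42). Meioc read 2.52, 2.21 and 2.33 against 1.78, 1.79 and 1.88, a difference of 0.54 (0.29), and Crabp2 differed by 0.66 (0.26). For Stra8, control female replicates 1 and 2 lay above the control male arrays and replicate 3 below them, and every Rnf2delta female array lay above all 3 control females. The meiotic list gave 3 of 38 higher in females and 2 in males in controls, against 1.8% and 9.67% of all genes, with a median of 0.13. In the same order, controls gave 6 of 20 and 1 for the oogenic and BMP list and 4 of 21 and 2 for PRC1 subunits. Imprinted genes gave 3 of 21 and 1, mitotic genes 2 of 27 and 6, and Nodal genes 1 of 15 and 6. Spermatogenic genes gave 0 of 21 and 4, glycolysis genes 0 of 15 and 3, and pluripotency genes 0 of 24 and 2. Over all genes in controls 1.8% were higher in females and 9.67% in males. The male-high shares of the meiotic, oogenic, PRC1, imprinted and pluripotency lists were near or below that of all genes. Rec8 (1.17, adjusted p = 0.0041), Id2 (2.28), Gata2 (1.77), Zglp1 (1.76) and Phlda2 (3.42) differed between the sexes with Rnf2 present as well, and so did Tdgf1 (-2.68) and Lefty1 (-3.28).

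A test of the difference between genotypes passed the threshold for 2 genes of 14686 (0.0136%), 1 upward and 1 downward (0.00681% each), while 1208 had an unadjusted p below 0.05. These were Tmem59, a membrane protein gene, whose female minus male difference was 0.46 in Rnf2delta and -0.85 in controls, apart by 1.31 ± 0.23 (limma adjusted p = 0.043), and the Y RNA gene Rny3, at 0.10 and 2.12, apart by -2.02 ± 0.37 (0.047). Neither was called within Rnf2delta. In a fit of the 4 compared groups alone the test called 1 gene, Aldh3b3, and with the replicate number as a block it called 3, Aldh3b3, Rny3 and Vaultrc5, so Tmem59 lost its call in both. Their arrays in controls read 4.93, 4.96 and 4.73 in females against 5.83, 5.66 and 5.69 in males for Tmem59, and 9.32, 9.19 and 9.19 against 6.97, 6.89 and 7.47 for Rny3. Over 53 small RNA genes tested, control females were higher for 13 and lower for 1 (median 0.25), against 1.8% and 9.67% of all genes. Rnf2delta females were higher for 3 and lower for 7 (median -0.05), against 3.13% and 6.29% of all genes. The part of small RNA signal in this test was not tested. The next genes by p were Stra8, at 2.81 ± 0.55 (adjusted p = 0.064), Vaultrc5, a vault RNA (-2.73, 0.072), Setdb2, a SET-domain gene (1.5, 0.097), and Meioc at 2.03 ± 0.42 (0.097).

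The adjusted p of Stra8 in that test ranged from 0.0061 to 0.25 over the alternatives, and passed in 5 of them, which were equal weights (40 genes in all), 1 weight per array (4), an intensity trend (5), without control female replicate 1 (3) and without Rnf2delta female replicate 3 (13). Meioc passed with equal weights and without that last array. Quantile normalization left 0 genes with 1107 at an unadjusted p below 0.05, and leaving out male replicate 3 left 0 as well, also with 1107. The differences between genotypes for Stra8 and Meioc thus missed the threshold over all genes with the deposited values and group weights.

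Few of these sex differences were called a day earlier. At E11.5, 85 genes differed between the sexes in Rnf2delta (35 higher in females, 50 in males, 0.579% of those tested) and 58 in controls (0.116% higher in females, 0.279% in males). Of the 460 female-high genes of E12.5 Rnf2delta 14 were called the same way at E11.5, and of the 924 male-high genes 21. Stra8 read 2.32, 2.37 and 1.85 in females and 2.03, 2.36 and 2.40 in males, and Meioc differed by -0.33. Tdgf1 read 5.28, 5.36 and 5.54 in females and 5.98, 6.99 and 6.35 in males, so that the male arrays of both stages overlapped while the E12.5 female arrays lay lower. A test of the change in the sex difference called 420 genes (2.86%), 159 upward and 261 downward, 282 and 311 after quantile normalization. The largest upward changes were those of Stra8 (3.46 ± 0.47, adjusted p = 8.0e-05), Phlda2 (2.91 ± 0.59), Meioc (2.90 ± 0.36), 4930447C04Rik (2.20) and Cks2, a cyclin-dependent kinase subunit (2.07). The largest downward changes were those of Tdgf1 (-3.16 ± 0.55, 0.0016), Lefty1 (-2.81 ± 0.54), Mir6516 (-2.02), Igha (-1.84) and L1td1 (-1.71). Of the 38 meiotic genes 13 changed upward and 0 downward, against 1.08% and 1.78% of all genes. Without E12.5 male replicate 1 or 2, E12.5 female replicate 1 or E11.5 female replicate 1 the test called 196, 194, 169 and 257 genes. Cks2 has 3 probe sets, and its sex difference within Rnf2delta (1.73 ± 0.21, adjusted p = 3.5e-06) was lost when they were averaged (0.89).

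How far the fates had parted was read against controls 1 stage later. At E13.5, 3230 genes differed between control sexes, 22% of those tested, 10.2% higher in females and 11.8% in males. Of the 460 female-high genes of E12.5 Rnf2delta 253 were among them in the same direction (55% of the 460 and 16.8% of the 1504) and 6 in the opposite one. Of the 924 male-high genes these numbers were 520 (56.3% of the 924 and 30.1% of the 1726) and 12. Those called there with a difference of at least 1 formed an oogenic set of 218 genes and a spermatogenic set of 262. The arrays they were chosen on lay outside the comparison but in the same fit, with its gene-wise variances. In the oogenic set the median difference was 1.21 at E13.5, 0.62 in E12.5 Rnf2delta and 0.35 in E12.5 controls, so Rnf2delta had 51.7% and controls 29.3% of the later median. The control value was 0.48 after quantile normalization, and that of Rnf2delta is not given here, so the 0.62 and 0.35 hold for the deposited values. The interquartile range of log2 signal was 2.21, 2.50 and 2.42 on E12.5 control female arrays. On Rnf2delta female arrays it was 2.60, 2.63 and 2.50. The part of this spread in the medians was not tested. In the spermatogenic set the medians were -1.28, -0.81 and -0.85, or 63.6% and 66.8%. At E11.5 the Rnf2delta medians were 0.05 and -0.13. Medians over all autosomal genes were -0.05 in Rnf2delta and -0.07 in controls at E12.5.

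The mean log2 signal over the oogenic set was 5.02, 4.76 and 4.55 in Rnf2delta females and 4.09, 4.08 and 3.97 in Rnf2delta males. E12.5 control females lay lower, at 4.19, 4.30 and 4.03, and control males at 3.79, 3.74 and 3.77. E13.5 control females lay at 4.98, 5.23 and 5.07 and males at 3.75, 3.66 and 3.74. All 3 arrays of each sex of Rnf2delta lay above those of the same sex of E12.5 controls for the oogenic set, and Rnf2delta female replicate 1 reached the E13.5 female range. The arrays of each sex of Rnf2delta lay above same-sex controls at E11.5 as well. Rnf2delta read 4.24, 4.21 and 4.37 in females and 4.21, 4.16 and 4.14 in males there. Controls read 3.97, 3.97 and 3.89, and 3.90, 3.83 and 3.83. Over the spermatogenic set the Rnf2delta females read 4.32, 4.54 and 4.52 and the males 5.29, 5.38 and 5.16, ranges that overlapped with those of E12.5 controls (4.28, 4.52 and 4.64, and 5.34, 5.36 and 5.26).

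**Figure D4:**
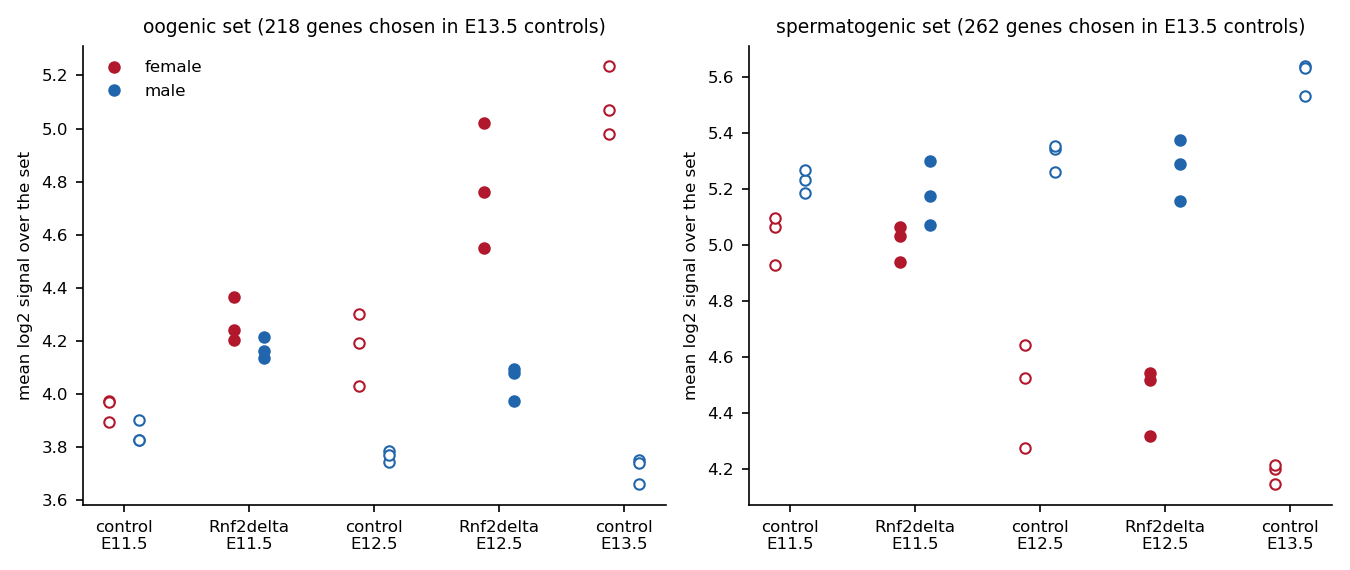
Mean log2 signal per array over the 218 genes of the oogenic set (left) and the 262 of the spermatogenic set (right), both chosen in E13.5 control arrays; red is female, blue male, filled Rnf2delta and open control. In the left panel E12.5 Rnf2delta females lie at 4.55 to 5.02, above E12.5 control females at 4.03 to 4.30, while in the right panel the E12.5 genotypes overlap in each sex.

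Gene by gene, 206 of the 218 oogenic genes (94.5%) had the same sign in Rnf2delta, against 43.2% of all autosomal genes. Of the 218, 86 were called higher in females (39.4%, against 3.13% of all genes) and 0 in males. In E12.5 controls 168 (77.1%) had the same sign, against 41.2% of all genes. There 43 were called higher in females (19.7%, against 1.8% of all genes) and 1 higher in males. Of the 262 spermatogenic genes 248 (94.7%) had the same sign in Rnf2delta, against 56.8% of all genes. Of the 262, 143 were called higher in males (54.6%, against 6.29% of all genes) and 1 higher in females, which was Cdkn1b. In controls 150 were called higher in males (57.3%, against 9.67% of all genes) and 1 higher in females. The test of the difference between genotypes called 0 genes of either set.

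**Figure D5:**
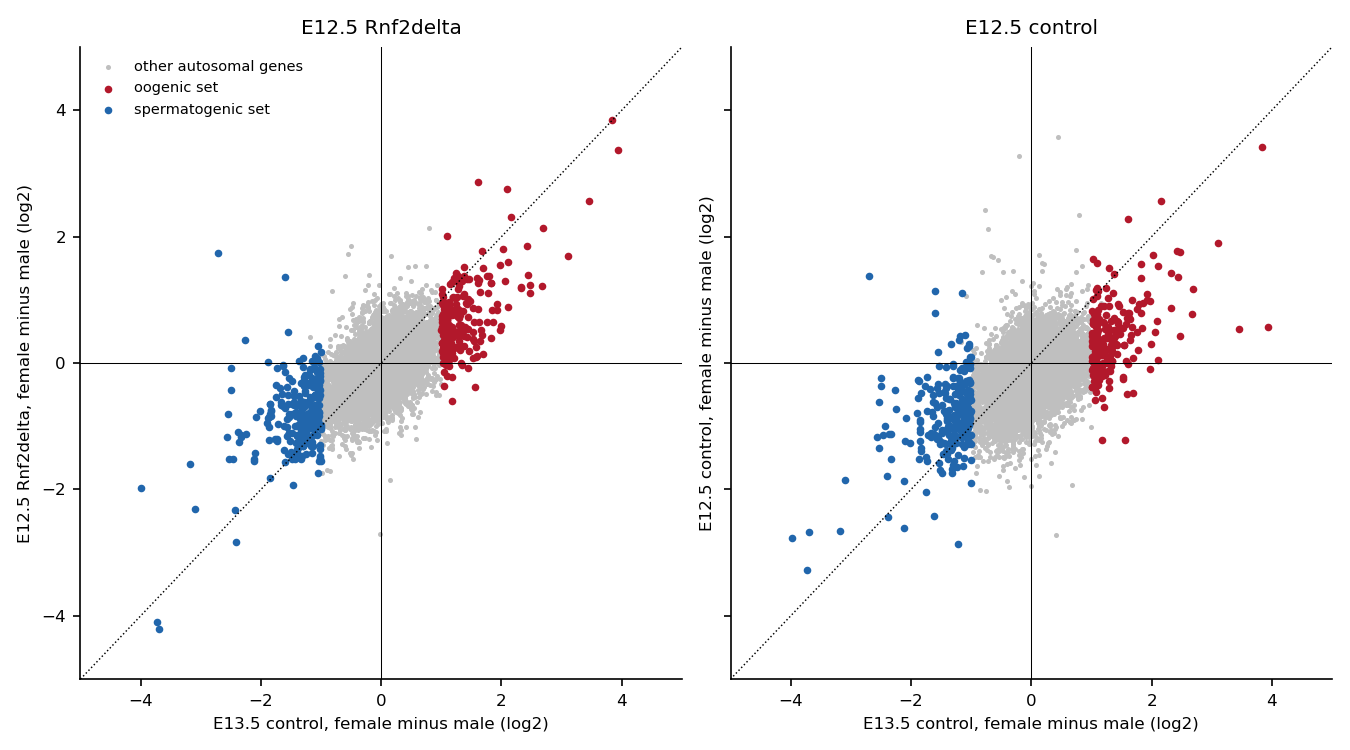
Female minus male difference (log2) in E12.5 Rnf2delta (left) and E12.5 control (right) against that in E13.5 controls, 1 point per autosomal gene, with the oogenic set in red, the spermatogenic set in blue and a dotted line of equality. With the deposited values the red points lie higher in the left panel, with a median of 0.62 against 0.35, and the blue points lie alike, at -0.81 and -0.85.

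A test against the E13.5 difference called 227 genes (1.55%), 91 higher and 136 lower in Rnf2delta. Of the oogenic set 39 fell short of the E13.5 difference and of the spermatogenic set 30; the sets were chosen for a large E13.5 difference, so these numbers and the shares of the E13.5 median are descriptions. Stra8 differed by -0.55 (adjusted p = 0.64), Meioc by -0.88 (0.24) and Rec8 by -0.56 (0.44), none of them called, with standard errors of 0.47, 0.37 and 0.32. Zglp1 did fall short, at -1.25 (0.039). On the male side Hesx1, a homeobox gene, read 1.68, 1.68 and 1.57 in E12.5 Rnf2delta females and 1.80, 1.69 and 1.66 in males. E13.5 control males read 3.86, 4.93 and 3.87 for Hesx1, and the sex differences themselves differed by 2.43 ± 0.28 (1.1e-05). Nanos2 was at 3.71, 5.13 and 5.44 in E13.5 control males, and its sex difference fell short by 2.07 ± 0.41 (0.0091). Tdgf1, Lefty1 and Otx2 were not called in this test (-0.52, -0.36 and 0.10).

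Cdkn1b pointed the other way at E13.5. It read 2.94, 3.25 and 3.20 in E13.5 control females and 4.95, 5.05 and 4.20 in males, a difference of -1.61, against 1.35 in E12.5 Rnf2delta, and the differences were apart by 2.96 ± 0.54 (adjusted p = 0.0048). In E12.5 controls its difference was 1.14 (0.11), with one female array at 6.74 and the others at 4.25 and 3.99. The remaining genes with the largest excess over E13.5 were E330020D12Rik (2.64), Rbm12b2 (2.35) and Cks2 (2.28), and those with the largest deficit Igha (-2.0), 1700018B24Rik (-1.93), Aven (-1.79), Prelid2 (-1.78) and Vamp8 (-1.55). Without Rnf2delta male replicates 1, 2 and 3 this test called 46, 69 and 404 genes, without Rnf2delta female replicates 2 and 3 it called 83 and 120, and without E13.5 male or female replicate 2 it called 145 and 136.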

How the data were processed

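The authors deposited log2 signals for 34760 probe sets on each of 30 arrays in 10 groups; the submitters' processing notes name R 2.15 and affy 1.36, with background correction, summarisation and build not given in the sources used here. Array medians were 2.52 to 2.66, so the table was already normalized. Symbols were updated through Entrez identifiers with RefSeq's GRCm38.p6 table, used for names, chromosome class and promoter sequence. The probe set with the highest mean stood for a gene. Genes above the 40th percentile of the array on at least 3 arrays were kept (15180 of 19937, 14686 autosomal). One limma fit (3.58.1, R 4.3.3) held all arrays, 1 mean and 1 variance weight per group, with two-sided moderated tests adjusted by Benjamini-Hochberg over all 15180 genes; errors are SE. The script was tested on simulated data. Alternatives changed weights, filter, probe-set rule, normalization, variance trend and samples. Same-numbered female and male arrays deviated together with correlations of 0.05, 0.02 and 0.07 in E12.5 Rnf2delta and -0.11, 0.04 and -0.07 in E12.5 controls, so the numbers were not taken to pair the sexes. Between genotypes at E12.5 these were 0.18, 0.10 and 0.29 in males, each above 0.1, and 0.091, 0.056 and 0.081 in females, so the blocked value stands beside the test between genotypes. Named genes were the 12 with the largest non-overlapping called differences each way (5 for other comparisons), called members of 27 lists with up to 4 others each in list order, and fixed germ cell genes, or the 5 genes of smallest p where under 5 passed. The comparison and lists were chosen with earlier results of these data known. Scan batches were not analysed here. The number of arrays limits the precision.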

Additional observations from a re-analysis of the deposited data

Results flagged for a closer look

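Sex differences that themselves differed between genotypes or stages by the interaction test of limma are given here as values. Between genotypes at E12.5, 2 genes differed, Tmem59 by 1.31 and Rny3 by -2.02.

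Between E12.5 and E11.5 in Rnf2delta, 420 genes differed. The largest upward changes were those of Stra8 (3.46), Phlda2 (2.91), Meioc (2.90), 4930447C04Rik (2.20) and Cks2 (2.07). The largest downward changes were those of Tdgf1 (-3.16), Lefty1 (-2.81), Mir6516 (-2.02), Igha (-1.84) and L1td1 (-1.71).

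Between E12.5 Rnf2delta and E13.5 controls, 227 genes differed. The difference was larger or of opposite sign in Rnf2delta for Cdkn1b (2.96), E330020D12Rik (2.64), Rbm12b2 (2.35) and Cks2 (2.28), and nearer 0 in Rnf2delta for Hesx1 (2.43). It was lower for Igha (-2.0), 1700018B24Rik (-1.93), Aven (-1.79), Prelid2 (-1.78) and Vamp8 (-1.55).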

How the results depend on the processing

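The count of sex-different genes in Rnf2delta was 1384, 2153 with equal weights, 902 with the compared groups alone and 718 to 1863 without 1 array. In 16 other settings 128 female-high and 308 male-high genes were called every time. In E12.5 controls 1685 became 2791 with equal weights, 958 after quantile normalization, 1101 with the compared groups alone and 1036 to 1825 without 1 array. The test between genotypes called 2 genes, 40 with equal weights, 4 with 1 weight per array, 5 with a trend, 1 without the filter, 1 with the compared groups alone, 0 after quantile normalization and 0 to 13 without 1 array. Between stages 420 became 226 with the compared groups alone and 169 to 566 without 1 array. Against E13.5, 227 became 150 and 46 to 404. With the replicate number as a block these 5 counts were 936, 775, 3, 104 and 115. Tmem59 is not among the 3, and Rny3 is. The 3 E12.5 control female arrays were left out as an alternative chosen after seeing the data, which gave 1414 genes in Rnf2delta. Of 83 named genes past the threshold, 47 passed in every setting and 36 were lost in at least 1; none reversed. The causes of these changes were not tested. Signal near the lower end of the array compresses differences, so the difference of a gene that is low in one sex, such as Stra8, may be understated.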

Other observations

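Among the 24 genes with the largest differences in Rnf2delta, several on the male side belong to none of the lists. Mgst2, a microsomal glutathione transferase, read 3.02, 4.06 and 3.50 in females and 5.55, 5.63 and 5.33 in males (-1.98 ± 0.46, limma adjusted p = 0.0055), and its difference was -2.77 in E12.5 controls and -3.99 in E13.5 controls. Slc7a7, an amino acid transporter subunit, read 3.35, 3.61 and 4.17 against 5.24, 5.52 and 5.58 (-1.74 ± 0.21). Pdxk, pyridoxal kinase, differed by -1.72 ± 0.23, Bcar3, an adaptor protein, by -1.73 ± 0.30 and Wdr31, a WD-repeat gene, by -1.94 ± 0.22. Each of these 5 genes was also lower in control females at E12.5, by 0.82 for Bcar3, which was not called there (adjusted p = 0.092). The probe set named Igha read 5.47, 6.19 and 5.81 in females and 7.66, 7.85 and 7.51 in males (-1.85 ± 0.39), and its difference was -0.46 in E12.5 and 0.15 in E13.5 controls. Averaging the probe sets of Igha gave a difference of -0.998 in Rnf2delta (limma adjusted p = 0.0094).

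Setdb2, a SET-domain histone methyltransferase gene, read 4.93, 3.84 and 3.91 in Rnf2delta females and 3.19, 2.74 and 2.87 in males (1.29 ± 0.21, adjusted p = 2.0e-04). Its difference was -0.20 in E12.5 controls and 0.50 in E13.5 controls. Aven, an apoptosis regulator, read 3.15, 3.75 and 3.29 against 4.34, 5.12 and 4.34 (-1.21 ± 0.25), and its difference was 0.59 in E13.5 controls.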
